A study of Rattus norvegicus with 6 samples.

Results

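The VEGF and PDGF genes described here were 10 of the 17327 gene symbols counted, and were taken by symbol. They were the ligands Vegfa, Vegfb, Vegfc, Pgf, Pdgfa and Pdgfb, the receptors Flt1, Kdr and Pdgfrb, and Angptl4, a secreted protein of the angiopoietin-like family. The RNA came from primary cultures of Schwann cells, which ensheath the axons of peripheral nerves. They were prepared from sciatic nerves of adult Wistar rats and grown with forskolin and glial growth factor, itself a form of NRG1 (neuregulin 1). Confluent cells were starved for 18 h in medium with 2% serum and 10 µM forskolin, an activator of adenylyl cyclase, before being kept for 6 h in the same medium with either 10 nM soluble NRG1β1 (NRG1 samples) or its PBS and albumin buffer (mock samples). Serum and forskolin were therefore present in both groups. Each of 3 independent cultures gave 1 mock and 1 NRG1 sample with the same replicate number, and all 6 libraries were made from poly(A) RNA.

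VEGF ligands are secreted dimers that bind receptor tyrosine kinases. Vegfa binds Flt1 (VEGFR-1) and Kdr (VEGFR-2), Vegfb and Pgf (placental growth factor) bind Flt1, and Vegfc acts mainly through Flt4 (VEGFR-3) and is best known for the growth of lymphatic vessels. PDGF ligands are built in the same way, and Pdgfrb, the beta receptor, binds dimers that hold the Pdgfb chain. In nerves, VEGF from Schwann cells is known to guide blood vessels, while PDGF acts as a growth and survival signal for Schwann cells and as a recruitment signal for pericytes, the mural cells of small vessels.

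The libraries held between 6821590 and 15475018 counts on genes. The floor was set at 3 counts, which corresponds to 0.194 to 0.444 CPM (counts per library-size unit, as edgeR gives them with TMM scaling). The labelled cell type was checked first. All 11 of the Schwann cell markers found in the files were counted in each sample, among them Ngfr, the low-affinity neurotrophin receptor, at a mean mock level of 2079 CPM. Culture 1 stood apart from cultures 2 and 3 in its mock and NRG1 sample alike. Schwann cell markers summed to between 5360 and 6616 CPM in culture 1 and to between 13350 and 17210 CPM in the other cultures. The 10 fibroblast markers summed to between 53430 and 57720 CPM against 13700 to 22340 CPM, and the 10 markers of pericytes and smooth muscle to between 4271 and 4460 CPM against 673.3 to 1815 CPM. For this reason the calls are also given without culture 1. Of the endothelial markers, 6 of 10 were at 0 in all samples (Pecam1, Cdh5, Emcn, Cldn5, Esam and Robo4) and the list summed to between 13.15 and 19.98 CPM, most of it from Tek and Egfl7. Of the macrophage markers, 4 of 10 were at 0 in all samples, and their sum was at most 10.56 CPM. A 0 in every library need not mean that the RNA was absent, since the collagen gene Col1a2 was listed with at most 2 counts beside 119349 to 240687 counts of its partner Col1a1.

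Stimulation with NRG1 was compared with mock in the 3 pairs by edgeR's quasi-likelihood test with the culture as a block. A gene was said to rise or fall where its adjusted p was 0.01 or less, and the study's own rule, which also asks for an absolute log2 fold change over 1, was counted beside it. Of the 10 genes, 6 passed the filter on low counts, which asked for at least 1.2047 CPM in 3 samples, counted before TMM scaling. Pdgfa rose, and no member fell, against 6.31% of the 9740 genes tested that rose and 5.51% that fell. At 1 of 6, the share of members that rose rests on a single gene. No member passed the study's 2-fold rule when applied to this edgeR fit, by which 1.56% of all genes tested rose and 1.91% fell. The study itself applied the rule to DESeq2 results. At an unadjusted p under 0.05, 3 members were higher and 1 was lower, 0 of them by more than 2-fold. Such p-values were common, since Vegfa, just over this cut-off at 0.052 by edgeR, ranked 3531 of the 9740 genes tested. The same holds for the unadjusted counts of the lists below. DESeq2 called 0 of the members in either direction. The median log2 fold change was 0.38 over the 6 members and -0.03 over all genes tested.

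**Figure D1:**
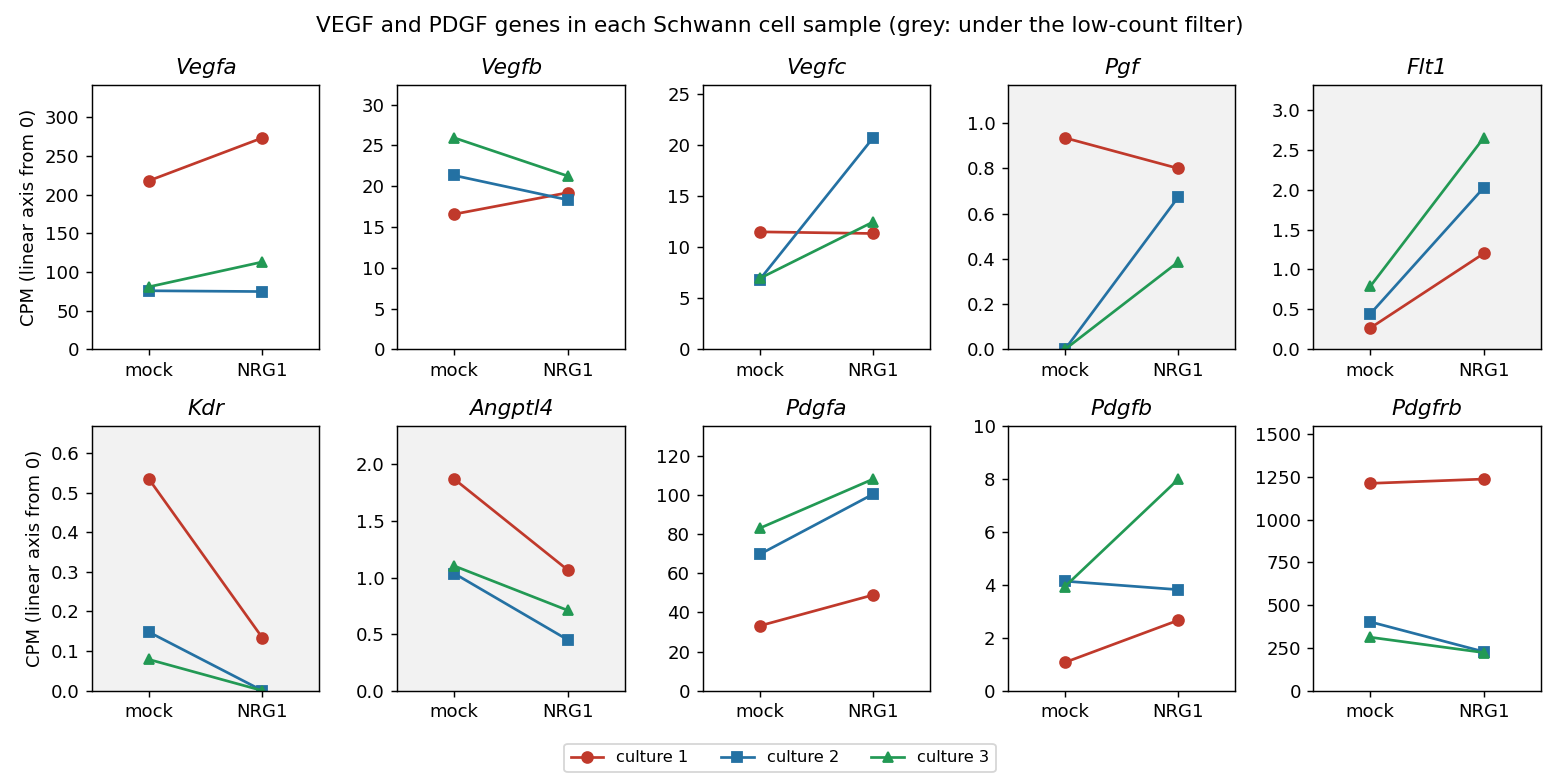
Level of each of the 10 genes (CPM, linear axis from 0, a different scale in each panel) in the mock and the NRG1 sample of cultures 1, 2 and 3, with lines joining the samples of 1 culture and no averaging. Pdgfa and Flt1 went up in all 3 cultures, Vegfc in cultures 2 and 3, and Pdgfrb went down in cultures 2 and 3 only, while its level in culture 1 was 1212 and 1237 CPM.

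The stretches before the transcription starts are shown for Pdgfa, Vegfc and Flt1, the members that rose in the fit over 3 cultures, without culture 1 or with no low-count filter. They are the 250 bases upstream of the RefSeq start in the GRCr8 assembly, 5′ to 3′ on the strand of the gene, and not the rn5 assembly of the counts. Capitals mark the CRE TGACGTCA, the cAMP response element bound by CREB, and the GC box GGGCGG or its reverse complement, a motif bound by Sp1.

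Pdgfa (chr12:20759116-20759365, plus strand): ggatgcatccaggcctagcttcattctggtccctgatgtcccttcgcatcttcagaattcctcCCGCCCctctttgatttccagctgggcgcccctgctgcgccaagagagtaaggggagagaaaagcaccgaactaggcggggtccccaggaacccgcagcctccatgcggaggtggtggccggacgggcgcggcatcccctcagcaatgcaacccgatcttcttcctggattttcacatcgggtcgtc
Vegfc (chr16:44560888-44561137, minus strand): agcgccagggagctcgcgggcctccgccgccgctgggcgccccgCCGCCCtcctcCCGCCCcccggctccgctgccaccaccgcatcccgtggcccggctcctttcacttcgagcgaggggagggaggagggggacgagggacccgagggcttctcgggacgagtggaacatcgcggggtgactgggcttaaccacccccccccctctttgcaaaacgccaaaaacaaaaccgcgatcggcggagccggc
Flt1 (chr12:12333180-12333429, plus strand): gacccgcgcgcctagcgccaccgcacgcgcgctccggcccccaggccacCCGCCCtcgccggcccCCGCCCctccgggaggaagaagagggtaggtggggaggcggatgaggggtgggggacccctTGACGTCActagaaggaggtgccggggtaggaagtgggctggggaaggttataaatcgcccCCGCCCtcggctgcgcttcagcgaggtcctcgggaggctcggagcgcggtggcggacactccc

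RefSeq windows were found for 9 of the 10 members, with 2 for Vegfa. Searched on both strands, the CRE was held by 1 of the 10 windows, that of Flt1, where it lay 124 to 117 bases before the start, and by 1.59% of all 33469 windows of the same length. The GC box was held by 9 of the 10 windows and by 30.5% of all windows. ACGTG, a form of the core bound by the hypoxia-inducible factor (HIF), was held by 1 member window, that of Angptl4, and by 16.6% of all. Other forms of this core were not searched, so HIF cores in the remaining member windows may have been missed. The AP-1 motif TGANTCA was in none of the member windows and in 6.34% of all. The GC box was added to the search after the sequences had been seen, and such matches are letters in a window, not sites shown to be bound.

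Among the PDGF ligands, Pdgfa, which encodes the A chain and signals through the alpha receptor, was counted at 33.1, 69.7 and 83.0 CPM in mock cultures 1, 2 and 3 and at 48.9, 100.5 and 108.2 CPM in the NRG1 samples of the same cultures. It went up within every culture, although the groups overlapped because culture 1 was low in both. Its log2 fold change, 0.49 with a standard error of 0.12, passed (adjusted p = 0.0091), a 1.40-fold difference with a 95% interval of 1.17 to 1.67. The log2 ratios of the pairs, 0.56, 0.53 and 0.38, were the most even of the 6 members tested. The call lay close to its threshold. DESeq2 with the same block gave a log2 fold change of 0.50 with an adjusted p of 0.012, and leaving out culture 1, 2 or 3 gave adjusted p-values of 0.055, 0.016 and 0.032.

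The genes most like Pdgfa, by Euclidean distance between log2 CPM centred over the 6 samples, were Abtb2 (distance 0.161), Traf4 (0.175) and RGD1311558 (0.184). Their log2 fold changes were 0.59, 0.53 and 0.45. They share with Pdgfa the low level in culture 1 and the small step up within each pair, since the distance uses exactly these values.

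Pdgfb, the B chain and the ligand of Pdgfrb, was a low gene. Its counts were 8, 28 and 50 in mock cultures 1, 2 and 3 and 20, 34 and 124 in the NRG1 samples. These are 1.07, 4.14 and 3.94 CPM against 2.67, 3.82 and 8.01 CPM, so that Pdgfb was higher with NRG1 in cultures 1 and 3 and not in culture 2. A log2 fold change of 0.70 with a standard error of 0.30 did not pass (adjusted p = 0.11), and its 95% interval ran from 0.06 to 1.34. Without culture 1, 2 or 3 it was 0.57, 1.09 and 0.43 (adjusted p = 0.21, 0.023 and 0.6), so its size depended on the cultures read.

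Pdgfrb had 9071, 2719 and 3964 counts in mock cultures 1, 2 and 3 and 9281, 2027 and 3449 counts with NRG1. Scaled to the libraries, these were 1212, 402.3 and 312.3 CPM against 1237, 227.8 and 222.6 CPM. The receptor was lower with NRG1 in cultures 2 and 3 and at nearly the same level in culture 1. Over the 3 cultures, a log2 fold change of -0.42 with a standard error of 0.15 did not pass (adjusted p = 0.06). Without culture 1, Pdgfrb fell by 0.65 on the log2 scale (standard error 0.18, adjusted p = 0.0033), a 1.57-fold lower level, where 6.05% of all genes tested fell. Without culture 2 or 3 its log2 fold change was -0.22 and -0.37 and did not pass (adjusted p = 0.31 in each case). Some markers of stromal cells were lower beside it in cultures 2 and 3. Without culture 1, 2 of 5 tested pericyte and smooth muscle markers fell, Mcam by 1.07 and Tagln by 0.69. Of 3 tested fibroblast markers 1 fell, the collagen Col3a1, by 1.48. Schwann cell markers fell in that fit as well, 2 of 11 tested, Cdh19 by 1.00 and Gfap by 0.75. The part of these marker changes in the fall of Pdgfrb was not tested. Whether its response in culture 1 differed from that in the other cultures was not tested.

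Pdgfrb is also known as a marker of pericytes and fibroblasts, so the markers of these cells are given beside it (the genes below were picked after their values had been seen). In culture 1, the mock and NRG1 samples held 4574 and 3203 counts of the fibroblast proteoglycan Dcn, 9493 and 8576 of Thy1, 140 and 128 of the pericyte regulator Rgs5, 145 and 143 of Kcnj8 and 338 and 305 of Abcc9. In cultures 2 and 3 all 5 of these genes had 0 counts in all 4 samples, in which 3 counts are 0.444 CPM or less. In the same 4 samples Pdgfrb was counted between 222.6 and 402.3 CPM. Pdgfra, the alpha receptor and a fibroblast marker, had 6512 and 6205 counts in culture 1 and between 1 and 25 in the other samples. The smooth muscle actin Acta2 had 13567 and 13836 counts in culture 1 and between 7 and 31 elsewhere. Other markers of the same lists were well counted in cultures 2 and 3. Col1a1 had between 119349 and 213064 counts there, Col3a1 between 2479 and 5662, the smooth muscle gene Tagln between 1084 and 1602 and Mcam, an adhesion molecule, between 6421 and 14851, and within each group Mcam was higher in CPM there than in culture 1. The markers thus did not all point one way, and their part in the 4.58-fold higher Pdgfrb level of culture 1 over culture 3 was not tested. In bulk RNA, more cells of a type and more RNA per cell cannot be told apart.

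**Figure D2:**
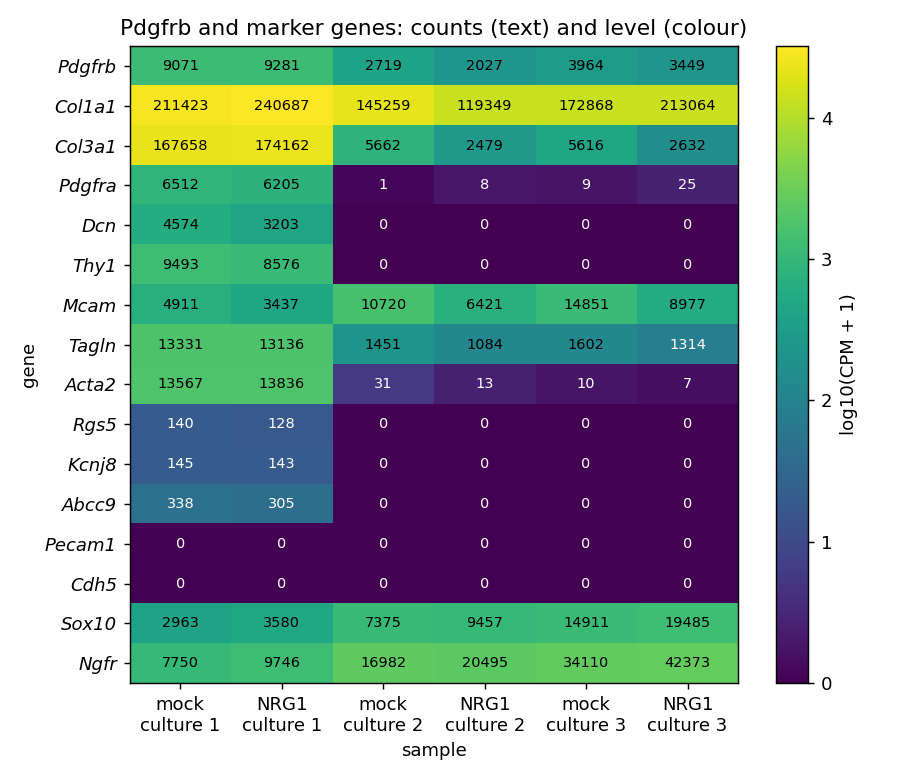
Deposited counts (numbers) and level as log10(CPM + 1) (colour) of Pdgfrb, fibroblast markers (Col1a1, Col3a1, Pdgfra, Dcn, Thy1), mural cell markers (Mcam, Tagln, Acta2, Rgs5, Kcnj8, Abcc9), endothelial markers (Pecam1, Cdh5) and Schwann cell markers (Sox10, Ngfr) in the 6 samples. Dcn, Thy1, Rgs5, Kcnj8 and Abcc9 are at 0 in cultures 2 and 3, where Pdgfrb has between 2027 and 3964 counts, while Col1a1, Col3a1, Mcam and Tagln have at least 1084 counts in every sample.

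Of the VEGF ligands, Vegfc had the largest fold change among the 6 members tested. It was counted at 86, 46 and 88 in mock cultures 1, 2 and 3 and at 85, 184 and 193 with NRG1, which is 11.5, 6.81 and 6.93 CPM against 11.3, 20.7 and 12.5 CPM. The mock level was highest in culture 1, where NRG1 and mock were nearly level, and the largest step was in culture 2. Over 3 cultures a log2 fold change of 0.80 with a standard error of 0.25 did not pass at 0.01 (adjusted p = 0.03). Without culture 1, Vegfc rose by 1.20 on the log2 scale (standard error 0.25, adjusted p = 4.8e-05), where 5.94% of all genes tested rose. Without culture 2 it was 0.45 (adjusted p = 0.19) and without culture 3 it was 0.80 (adjusted p = 0.081). The size of the change and its call thus depend on which cultures are read. DESeq2 with the same block gave 0.82 over 3 cultures (adjusted p = 0.071). The study named Vegfc as a representative up-regulated gene and reported its rise also by quantitative PCR in other independent cultures. It described some of the genes chosen for this PCR as weakly regulated, without naming them in its text. Here Vegfc did not pass the study's rule in either fit over 3 cultures.

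Vegfa, the main ligand of blood vessel growth, was at 217.9, 75.8 and 80.8 CPM in mock cultures 1, 2 and 3 and at 273.3, 74.7 and 113.0 CPM with NRG1. It was higher with NRG1 in cultures 1 and 3 and level in culture 2. A log2 fold change of 0.27 with a standard error of 0.13 did not pass (adjusted p = 0.14), and its 95% interval ran from 0.998-fold to 1.46-fold. Vegfb, a Flt1 ligand linked to metabolic tissues, was at 16.6, 21.3 and 25.9 CPM in mock and at 19.2, 18.3 and 21.2 CPM in NRG1 samples. Its log2 fold change of -0.11 with a standard error of 0.16 (adjusted p = 0.64) had an interval of 0.734-fold to 1.16-fold and no common direction, being higher in culture 1 and lower in the other cultures. The counts are per gene, so splice forms of Vegfa or Pdgfa were not resolved.

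**Figure D3:**
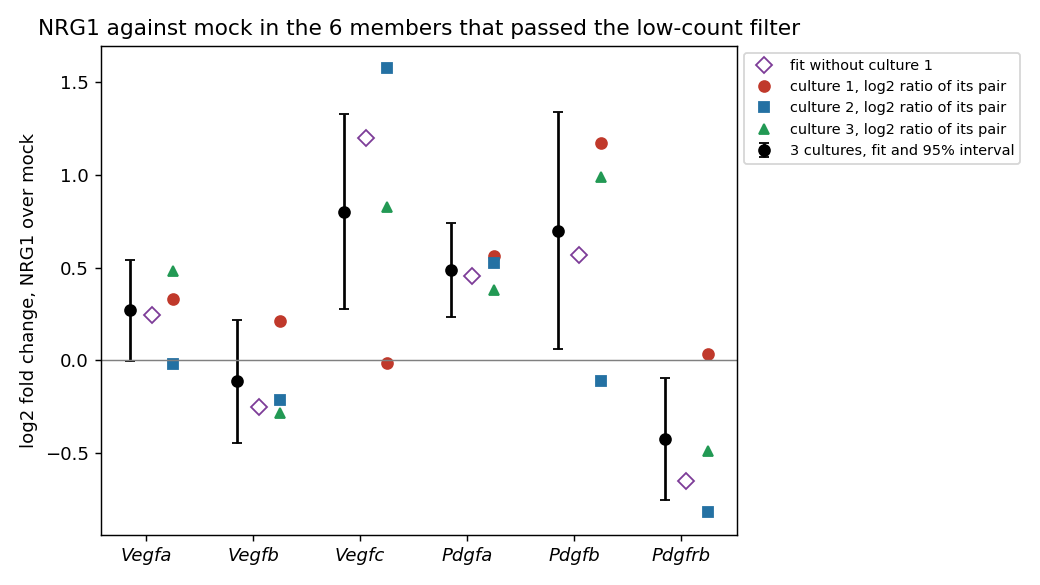
Log2 fold change of NRG1 over mock for the 6 members that passed the low-count filter, as the fit over 3 cultures with its 95% interval (black), the fit without culture 1 (open diamonds) and the log2 ratio of each pair (coloured). Pdgfa has the most even pairs, and for Vegfc and Pdgfrb the ratio of culture 1 lies close to 0, apart from those of cultures 2 and 3.

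Flt1, Pgf, Kdr and Angptl4 were under the filter and were not part of the main test. Flt1 missed it narrowly, at 1.16 CPM before scaling in the NRG1 sample of culture 1. Flt1, the VEGF receptor that also exists as a soluble decoy, had 2, 3 and 10 counts in mock cultures 1, 2 and 3 and 9, 18 and 41 counts with NRG1. The levels were 0.267, 0.444 and 0.788 CPM in mock against 1.20, 2.02 and 2.65 CPM in NRG1 samples. It was the only member whose groups did not overlap, as was the case for 20.1% of the 9740 genes tested. The ratios within cultures 1, 2 and 3 were 4.49, 4.56 and 3.36, with exact 95% counting intervals of 0.929 to 42.7, 1.33 to 24.2 and 1.65 to 7.52, which compare the 2 libraries of a culture only. In the fit with no low-count filter, Flt1 rose by 1.89 on the log2 scale (standard error 0.51, adjusted p = 0.0031), where 6.46% of 13129 genes rose. Without culture 1 the value was 1.87 (adjusted p = 0.0023), but Flt1 passed the filter of that fit only through the NRG1 samples, in which it is high, so that call adds no support, and without culture 2 it was 1.82 and did not pass (adjusted p = 0.024). DESeq2 gave a log2 fold change of 2.01 with an unadjusted p of 0.017 and no adjusted p. The mock samples of cultures 1 and 2 were at or under the floor of 3 counts, so the fold change itself is imprecise.

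Pgf had 7, 0 and 0 counts in mock cultures 1, 2 and 3 and 6 counts in each of the NRG1 samples. The ratio in culture 1 was 0.855, with an exact 95% counting interval of 0.237 to 2.97. In cultures 2 and 3 the lower limits of the ratio were 0.894 and 0.965, both under 1, so that 6 counts against 0 did not show a difference within either culture. In the fit with no low-count filter Pgf did not pass (log2 fold change 1.26, standard error 0.87, adjusted p = 0.37). Kdr, the main signalling receptor for VEGF on endothelial cells, had 4, 1 and 1 counts in mock and 1, 0 and 0 counts in NRG1 samples. All but 1 of these values were under the floor, and no difference was detectable at this depth. Angptl4, an inhibitor of lipoprotein lipase and a known target of PPAR and hypoxia signals, had 14, 7 and 14 counts in mock and 8, 4 and 11 counts with NRG1. It was lower with NRG1 in all 3 cultures, at 1.87, 1.04 and 1.10 CPM against 1.07, 0.45 and 0.71 CPM, but did not pass with no filter (log2 fold change -0.82, standard error 0.53, adjusted p = 0.32).

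Members also differed between the cultures. With condition held fixed, 4 of the 6 members tested passed an adjusted p of 0.01 for a difference among the 3 cultures, against 23.4% of all genes tested. Vegfa (adjusted p = 1.1e-06) and Pdgfrb (adjusted p = 2.1e-07) were high in culture 1, at 245.6 and 1225 CPM over its 2 samples against 75.3 and 315.1 CPM in culture 2 and 96.9 and 267.5 CPM in culture 3. Pdgfa (adjusted p = 2.9e-05) and Pdgfb (adjusted p = 0.0097) were low in culture 1, at 41.0 and 1.87 CPM against 85.1 and 3.98 CPM in culture 2 and 95.6 and 5.97 CPM in culture 3. Vegfb and Vegfc did not pass (adjusted p = 0.24 and 0.43). With culture 1 left out, 0 of 8 members differed between cultures 2 and 3 (edgeR, adjusted p between 0.38 and 0.92, 0 of them at an unadjusted p under 0.05). DESeq2 called Vegfa, Pdgfrb and Pdgfa different between the 3 cultures, and not Pdgfb (adjusted p = 0.071). Culture 1 thus had high levels of Vegfa, Pdgfrb and the summed fibroblast and mural cell markers, and low levels of Pdgfa and Pdgfb. This is a contrast of 1 culture with the others, and the part of the cell makeup in it was not tested.

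Around these genes, the rest of the VEGF and PDGF family showed no change that passed. Of 8 such genes, 5 were tested and 0 rose or fell by edgeR, against 6.31% and 5.51% of all genes tested. At an unadjusted p under 0.05, 1 was lower, and DESeq2 called 0. Nrp1 and Nrp2, the neuropilin co-receptors of VEGF, had log2 fold changes of -0.06 (adjusted p = 0.81) and -0.53 (adjusted p = 0.052). Nrp2 had 1591 and 1629 counts in culture 1 and between 148 and 305 in the others, an order of cultures like that of Pdgfrb. Pdgfc was at -0.03 and Pdgfra at 0.19 (adjusted p = 0.94 and 0.61). Flt4, the receptor of Vegfc, had between 1 and 6 counts and was not tested. Of the 24 signalling proteins known downstream of these receptors, 22 were tested, and 1 rose and 1 fell. These are 4.55% each, under the 6.31% and 5.51% of all genes tested. Map2k1, the kinase MEK1, rose (log2 fold change 0.59, adjusted p = 0.0033), and Gab1, a docking protein, fell by 0.52 on the log2 scale (adjusted p = 0.0093). The call of Map2k1 was lost without culture 3 (adjusted p = 0.029) and that of Gab1 without culture 1, 2 or 3 (0.011, 0.039 and 0.023). Their median log2 fold change was 0.03.

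Among 19 other angiogenic factors and receptors, 11 were tested, 2 rose (18.2%, against 6.31% of all genes tested) and 0 fell. At an unadjusted p under 0.05, 7 were higher and 2 lower. The shares above do not apply to this cut-off, which many genes met, as Vegfa, at 0.052 by edgeR, ranked 3531 of 9740. DESeq2 called 1 gene as risen, Fgfr1, 0 as fallen and 0 over 2-fold. Fgf1, an acidic fibroblast growth factor, rose past the 2-fold rule, from 2, 24 and 52 counts in mock to 10, 70 and 129 counts with NRG1 (log2 fold change 1.17, standard error 0.27, adjusted p = 0.0074). Fgfr1, a receptor for it, rose by less (0.49, adjusted p = 0.0083). The call of Fgf1 was lost with DESeq2 (1.29, adjusted p = 0.053), without culture 2 (0.029) and without culture 3 (0.047), and that of Fgfr1 without culture 1, 2 or 3 (0.021, 0.02 and 0.041). The list had a median of 0.41, next to -0.03 over all genes.

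Genes of the HIF list changed in both directions, while in the PPAR list 1 gene fell and 0 rose. Of 21 genes of the HIF pathway, the hypoxia response that is known to drive Vegfa, 18 were tested, 4 rose and 2 fell. These are 22.2% and 11.1%, against 6.31% and 5.51% of all genes tested. Unless past the 2-fold rule, the list genes named here were picked after their values were seen. Those that rose were the glycolytic genes Hk2 (1.05), Ldha (0.97) and Pgk1 (0.61) and the glucose transporter Slc2a1 (0.59). Those that fell were Ndrg1 (-1.20) and Ddit4 (-0.69), an inhibitor of mTOR signalling. Leaving out 1 culture lost the calls of Pgk1 (adjusted p = 0.016 without culture 2 and 0.023 without culture 3), Slc2a1 (0.051 without culture 1 and 0.024 without culture 3) and Ddit4 (0.014 without culture 2 and 0.057 without culture 3). Hif1a itself was at -0.10 (adjusted p = 0.63), and the list's median was near 0, at -0.0012. Of 13 PPAR receptors and targets, 9 were tested, 0 rose and 1 fell by edgeR, with 0 higher and 4 lower at an unadjusted p under 0.05 and 0 called by DESeq2. The gene that fell was Pdk4, which restrains the use of glucose, with 20, 25 and 41 counts in mock and 15, 4 and 11 counts with NRG1 (log2 fold change -1.73, standard error 0.42, adjusted p = 0.0092). The call was lost with DESeq2 (adjusted p = 0.049), without culture 2 (0.054) and without culture 3 (0.071). Of the lipoprotein lipase genes, 5 of 10 were tested and 0 rose or fell by edgeR and DESeq2, with 1 higher and 1 lower at an unadjusted p under 0.05. Lpl, the enzyme that Angptl4 inhibits, had 1806 and 1349 counts in culture 1 and between 3 and 37 in cultures 2 and 3, and its log2 fold change of -0.73 did not pass (adjusted p = 0.031).

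Between the groups, 3 of the 11 Schwann cell markers fell by edgeR (27.3%, against 5.51% of all genes tested) and 0 rose. At an unadjusted p under 0.05, a cut-off that many of all genes tested met, 6 were lower and 0 higher. DESeq2 called 4 lower and 0 higher. Cdh19, a cadherin of Schwann cell precursors, fell by 1.10 on the log2 scale (adjusted p = 7.9e-05), and S100b, a calcium-binding protein, fell by 0.58, a call lost without culture 1 (adjusted p = 0.057) and without culture 3 (0.14). Of the pericyte and smooth muscle markers, 6 were tested and Mcam fell by 0.89 (adjusted p = 0.0006), while Tagln and Acta2 did not pass. Of the fibroblast markers 4 were tested, of the endothelial markers 2 and of the macrophage markers 1, and edgeR and DESeq2 called 0 of them. At an unadjusted p under 0.05, 1 fibroblast and 1 endothelial marker were lower and 0 macrophage markers differed. The part of these shifts in the values of the members was not tested.

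**Figure D4:**
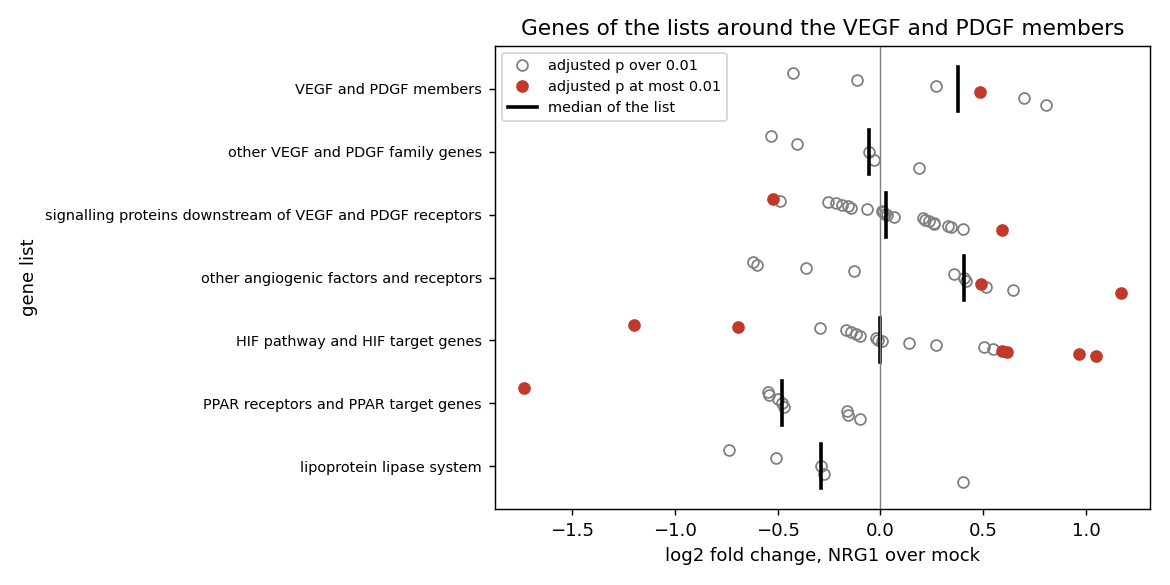
Log2 fold change of NRG1 over mock for each tested gene of the members and of 6 related lists, with genes at an adjusted p of at most 0.01 filled in red and the median of each list as a black bar. Of the members only Pdgfa, at 0.49, is filled, and the HIF list has filled genes on both sides of 0.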

How the data were processed

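Poly(A) RNA of 3 mock and 3 NRG1 samples was sequenced on an Illumina instrument. Reads were aligned by the authors to rn5 with TopHat 2.0.10 (version from the submitters' processing notes), and they deposited raw htseq counts per RefSeq gene, 1 file per sample. The htseq summary lines, 50.1% to 53.0% of each file's total, were left out. Groups and replicate numbers came from the labels.

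Counts were fitted with edgeR 4.0.16 in R 4.3.3 (glmQLFTest, TMM, filterByExpr with a minimum count of 10, 9740 genes kept), blocked on replicate number, and p-values were adjusted over all genes tested (Benjamini-Hochberg). Standard errors are the log2 fold change over the square root of F. Pair ratios used log2 CPM with a prior count of 2. Differences between cultures were tested with the 2 replicate coefficients of the same fit. With 3 pairs, an exact permutation p could not be lower than 0.25, so none was used. The scripts were tested on simulated data.

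Same-numbered mock and NRG1 samples come from the same cell preparation by the methods, and their deviations from group means correlated across genes with r of 0.91, 0.67 and 0.81, against at most 0.51 for other numbers. No 2 libraries of a group were alike within sampling noise (chi-square per degree of freedom at least 23.1).

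Members and lists were chosen with earlier results of these data known. Named are all 10 members, list genes past the 2-fold rule, the most abundant markers, the 3 genes closest to each member that rose, and genes said to be picked for their values. Some markers that this rule names are not reported here. No transcript lengths were used, so levels are compared only within a gene. Alternatives were no replicate block, DESeq2 1.42.0, RLE normalization, 2 other low-count filters, an adjusted p of 0.05 and leaving out each culture. Intervals within a culture cover counting error only. Promoters are from RefSeq (GRCr8).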

Additional observations from a re-analysis of the deposited data

How the results depend on the processing

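Without the replicate block, 0 genes rose or fell by edgeR, 0 of them over 2-fold, and the counts of members and of genes of the other lists were 0 as well, with 1334 genes but 0 members at an unadjusted p under 0.05. The pairing comes from the labels and methods, and the common coefficient of variation was 0.374 without the block against 0.119 with it. Pdgfa then had a log2 fold change of 0.47 (adjusted p = 0.7). DESeq2 with the block gave 123 genes that fell over 2-fold and 0 members that rose. With no low-count filter, 857 genes and 17 genes of the other lists fell, 3543 genes differed between cultures, and 3 members rose (Pdgfa, Vegfc and Flt1), 1 of them over 2-fold. At an adjusted p of 0.05, 1124 genes and 11 list genes rose, 1136 and 17 fell, 3538 differed between cultures, and 2 members rose (Pdgfa and Vegfc). With RLE normalization or at least 10 counts in every sample, none of these counts moved by over 1.5 times.

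Leaving out 1 culture at a time gave from 408 to 590 genes that rose and from 253 to 601 that fell, and over 2-fold from 122 to 299 that fell. List genes that rose ranged from 2 to 6 and those that fell from 2 to 14. Members that rose ranged from 0 to 2, over 2-fold from 0 to 2, and those that fell from 0 to 1. The 2 that rose were Vegfc and Flt1 without culture 1. Flt1 passed the filter there only through its NRG1 samples, so its call adds no support. Genes that differed between cultures ranged from 245 to 3783 and members from 0 to 4. The lowest number of such genes and members came without culture 1, and the lowest numbers of list genes without culture 3. Vegfb changed sign without culture 3, to 0.015 (adjusted p = 0.98) from values between -0.25 and -0.07 without the others. The other 5 members tested kept their direction in all alternatives. Flt1, Pgf, Kdr and Angptl4 rest on at most 41 counts a library, which limits their fold changes.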
